A study of Homo sapiens with 4 samples.

Results

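The 10 genes described here encode the enzymes that build diacylglycerol from glycerol-3-phosphate in human cells. They were chosen by name, in pathway order, from the 28973 genes of the deposited expression table. GPAM, GPAT3 and GPAT4 encode glycerol-3-phosphate acyltransferases. AGPAT1, AGPAT2, AGPAT3 and AGPAT5 encode acylglycerolphosphate acyltransferases. LPIN1, LPIN2 and LPIN3 encode the lipins. Each name stood on 1 row of the table, and all 10 passed the filter on low counts that left 17449 genes for testing.

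Per the labels, RNA was sequenced from cells of TOV-112D, a line established from a human ovarian cancer. The cells were grown with palmitic acid (PA) at 200 µM for 24 h or with bovine serum albumin (BSA) as the control, with 2 libraries in each group. The labels give 200 µM and 24 h for the BSA libraries too. Title and treatment name no genetic change in either group, but the other labels of the PA libraries go against this. Their description field gives SPTLC2 as knocked down, and the protocol text on all 4 libraries also mentions cells with a hairpin against ZDHHC15. ZDHHC15, a palmitoyltransferase gene, had 190083 and 167798 counts in the libraries labelled PA, against 291 and 225 counts in the BSA libraries. SPTLC2, a subunit gene of serine palmitoyltransferase, had 2194 and 1740 counts in the libraries labelled PA and 1524 and 1080 counts in the BSA libraries. Neither gene was low in the libraries labelled PA, as a knockdown would make it. ZDHHC15 was 824-fold higher in the libraries labelled PA and ranked 1 of the 17449 tested genes by p in edgeR. This gain and the PA treatment divide the same libraries. Their parts in the differences below cannot be told apart. Every direction below is drawn from libraries labelled PA with this conflict. Nothing in the labels says that libraries came from separate cultures, so each p measures only the spread between libraries.

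Total counts were 29662410 and 23722074 in PA replicates 1 and 2, and 28657038 and 31695944 in BSA replicates 1 and 2. Of 5 epithelial markers, KRT8 and KRT18 stood between 554 and 1791 CPM (counts scaled to the normalised library total) in all libraries, whereas EPCAM and KRT19 stayed under 1 CPM. The 5 summed to 2290 and 2590 CPM in the libraries labelled PA, against 1490 and 1900 CPM in the BSA libraries. The summed level of 3 endothelial markers was 3.44 and 3.22 CPM in the libraries labelled PA, against 0.268 and 0.533 CPM in the BSA libraries. The 4 adipocyte markers summed to 1.07 and 1.26 CPM in the libraries labelled PA, against 0.703 and 0.47 CPM in the BSA libraries, with ADIPOQ, LEP and FABP4 at 0 or 1 count in each library. Of the 3 leukocyte markers, CD3E and LYZ were also at 0 or 1 count, and PTPRC was not analysed here. Of the 3 fibroblast markers, COL1A1 and DCN summed to between 104 and 148 CPM, nearly all of it COL1A1, and LUM was not analysed here. VIM, a mesenchymal marker, was at 273 and 391 CPM in the libraries labelled PA, against 522 and 415 CPM in the BSA libraries. The part of these markers in the results was not tested.

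Glycerolipid synthesis starts when a glycerol-3-phosphate acyltransferase joins a fatty acyl group from acyl-CoA to glycerol-3-phosphate. The lysophosphatidate that results receives another acyl group from an acylglycerolphosphate acyltransferase and becomes phosphatidate. Lipins remove the phosphate and release diacylglycerol, from which cells make triglycerides, phosphatidylcholine and phosphatidylethanolamine. The pathway is a main route by which cells store saturated fatty acids taken up from outside, and sterol regulatory element-binding proteins (SREBPs) are known to drive some of its genes.

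Most of the 10 genes stood higher in the libraries labelled PA. For 8 of them the groups did not overlap, and all 8 were higher in the libraries labelled PA, namely GPAT3, GPAT4, AGPAT1, AGPAT2, AGPAT3 and the 3 lipins. GPAM and AGPAT5 overlapped between groups. Across all genes tested, 58% did not overlap, 28.9% higher and 29.1% lower in the libraries labelled PA. The log2 fold change was above 0 for 8 of the 10 genes, where it was for 44.1% of all genes. The median log2 fold change was 0.58 over the 10 genes and -0.12 over all genes tested. LPIN1 had the largest difference, 3.18-fold. In bulk RNA, a share of cells that express a gene and its RNA per cell cannot be told apart.

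None of the 10 genes passed at an adjusted p under 0.05 in edgeR's quasi-likelihood test with Benjamini-Hochberg adjustment over all genes tested. Nor did any other gene (0%, smallest adjusted p = 0.0544, the value of ZDHHC15). At an unadjusted p under 0.05, LPIN1 and AGPAT1 were higher and none was lower, where 13.1% of all genes were higher and 11.2% lower (24.3% in all). DESeq2 called LPIN1 alone among the 10, at an adjusted p under 0.05, where it called 10.6% of all genes.

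**Figure D1:**
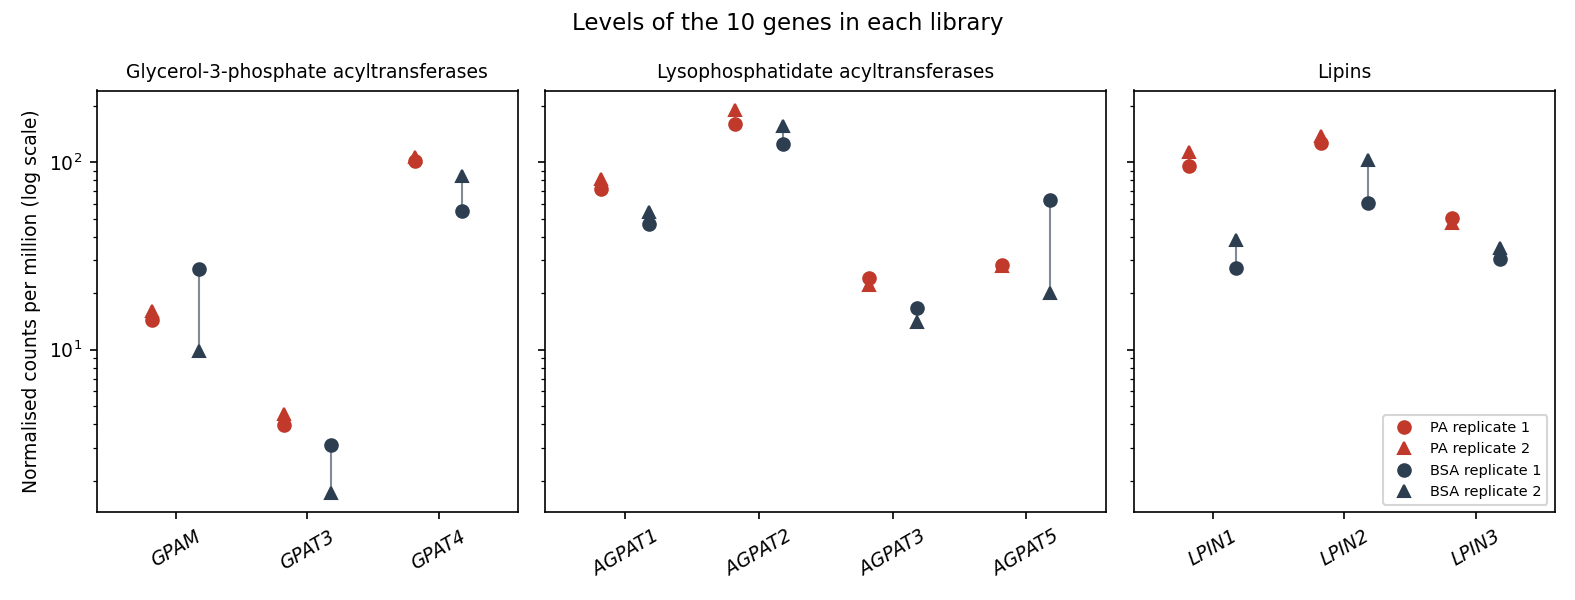
Normalised CPM of each gene on a log scale, with a circle for replicate 1 and a triangle for replicate 2 of each group and a line joining them. GPAM and AGPAT5 are the genes whose BSA libraries lie on both sides of the libraries labelled PA, and the LPIN1 groups are farthest apart.

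GPAM encodes the acyltransferase of the outer mitochondrial membrane, which prefers saturated acyl-CoA such as palmitoyl-CoA (ENSG00000119927, hg38, chr10:112149865-112215377, minus strand). It had 14.5 and 16.1 CPM in the libraries labelled PA, against 27.0 and 9.88 CPM in the BSA libraries. Both values of the libraries labelled PA fell between those of the BSA libraries, so the groups overlapped. Its log2 fold change was -0.27 ± 0.53 (SE), with an edgeR adjusted p of 0.773. Its direction followed the choice of BSA library, with 0.65 without BSA replicate 1 and -0.81 without BSA replicate 2, and it was 0.10 with a trend over GC content and length removed.

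GPAT3 encodes an acyltransferase of the endoplasmic reticulum that is known for triglyceride synthesis (ENSG00000138678, chr4:83535914-83605875, plus strand). It was the least abundant of the 10, with 116 and 104 counts in the libraries labelled PA and 93 and 55 counts in the BSA libraries. In CPM these were 3.99 and 4.52 in the libraries labelled PA, against 3.11 and 1.73 in the BSA libraries. The groups did not overlap, but BSA replicate 1 lay closer to PA replicate 1 than to BSA replicate 2. The log2 fold change of 0.81 ± 0.42 (SE) did not pass (edgeR adjusted p = 0.285), and it was 1.32 without BSA replicate 1 and 0.46 without BSA replicate 2.

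GPAT4, the other acyltransferase of the endoplasmic reticulum, carried most of the counts of this step (ENSG00000158669, chr8:41577187-41625001, plus strand). It had 101.5 and 105.9 CPM in the libraries labelled PA, against 54.6 and 84.3 CPM in the BSA libraries. Both libraries labelled PA were above both BSA libraries, and BSA replicate 2 was near them. GPAT4 had a log2 fold change of 0.58 ± 0.28 (SE; edgeR adjusted p = 0.266). Leaving out BSA replicate 1 gave 0.32, leaving out BSA replicate 2 gave 0.94, and removing the trend over GC content and length gave 0.34.

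AGPAT1 encodes a broadly expressed acyltransferase of the endoplasmic reticulum and lies in the major histocompatibility complex region (ENSG00000204310, chr6:32168212-32178096, minus strand). It had 72.2 and 81.2 CPM in the libraries labelled PA, against 46.6 and 54.1 CPM in the BSA libraries. The groups were separated by more than either group's own range. AGPAT1 was 1.52-fold higher (0.61 ± 0.23 SE on the log2 scale), with an unadjusted p of 0.0428 and an adjusted p of 0.195 in edgeR. The unadjusted p was not under 0.05 with upper-quartile factors, in DESeq2, with no filter, with the replicate block (with or without the trend over GC content and length removed), or without either of the libraries labelled PA. EGFL8 and the read-through gene PPT2-EGFL8 overlap AGPAT1 on the opposite strand, and their counts were between 64 and 134, against 1392 to 2099 for AGPAT1.

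AGPAT2, whose loss in humans causes generalized lipodystrophy, was the most abundant of the 10 genes (ENSG00000169692, chr9:136673143-136687457, minus strand). It had 159.6 and 190.4 CPM in the libraries labelled PA, against 124.2 and 155.2 CPM in the BSA libraries. PA replicate 1 was barely above BSA replicate 2, and the difference was of the size of the spread within each group. AGPAT2 had a log2 fold change of 0.32 ± 0.23 (SE; edgeR adjusted p = 0.407), with 0.19 without BSA replicate 1 and 0.50 without BSA replicate 2.

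AGPAT3, an acyltransferase of the endoplasmic reticulum and Golgi, had 24.0 and 22.0 CPM in the libraries labelled PA, against 16.7 and 14.0 CPM in the BSA libraries (ENSG00000160216, chr21:43865223-43987592, plus strand). The groups were apart by more than the range of either, with a log2 fold change of 0.58 ± 0.29 (SE; edgeR adjusted p = 0.269). With the trend over GC content and length removed it was 0.25.

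AGPAT5, a mitochondrial member of the family, had 28.2 and 28.1 CPM in the libraries labelled PA, against 62.9 and 20.04 CPM in the BSA libraries (ENSG00000155189, chr8:6708642-6761503, plus strand). The libraries labelled PA were nearly identical and lay between the BSA libraries, which were farther apart on the log2 scale for AGPAT5 than for any of the other 9 genes. AGPAT5 had a log2 fold change of -0.56 ± 0.56 (SE; edgeR adjusted p = 0.553), with -0.15 when the trend was removed, 0.51 without BSA replicate 1 and -1.15 without BSA replicate 2.

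LPIN1 encodes a phosphatidate phosphatase that also acts as a coactivator of nuclear receptors and whose loss in humans causes attacks of muscle breakdown (ENSG00000134324, chr2:11677595-11827409, plus strand). It had 2764 and 2611 counts in the libraries labelled PA and 814 and 1221 counts in the BSA libraries. In CPM these were 95.1 and 113.6 in the libraries labelled PA, against 27.3 and 38.3 in the BSA libraries, with means of 104.3 ± 13.1 and 32.8 ± 7.81 (SD, n = 2 each). Every library labelled PA was above every BSA library, and the gap between the groups was larger than the range of either. The log2 fold change was 1.67 ± 0.28 (SE), larger in size than that of 89.6% of all genes tested. LPIN1 ranked 409 of the 17449 genes by p, with an unadjusted p of 0.00172 and an adjusted p of 0.073 in edgeR.

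Over 15 alternatives its log2 fold change stayed between 1.33 and 1.95. With all 4 libraries it was called in DESeq2 (10.6% of all genes called) and with no filter on low counts (4.72%). A replicate block (edgeR adjusted p = 0.0325, with 3.08% of all genes called) also called it. So did the trend over GC content and length removed (9.32%), and block and trend removal together (15.8%). In the other alternatives with all 4 libraries its adjusted p ran from 0.0697 (edgeR, filter of 1 CPM in 2 libraries) to 0.0855 (limma on log2(FPKM + 1)). Without BSA replicate 1 the log2 fold change was 1.46, and without BSA replicate 2 it was 1.95. In these 2 fits the spread comes from the libraries labelled PA alone. The antisense transcript AC012456.2, inside the LPIN1 interval, had 6 and 7 counts in the libraries labelled PA and 0 and 0 counts in the BSA libraries, against 814 to 2764 for LPIN1.

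LPIN2, mutated in the inflammatory Majeed syndrome, had 126.1 and 137.4 CPM in the libraries labelled PA, against 60.3 and 102.1 CPM in the BSA libraries (ENSG00000101577, chr18:2885296-3013144, minus strand). The groups did not overlap, and the BSA libraries were farther from each other than BSA replicate 2 was from PA replicate 1. LPIN2 had a log2 fold change of 0.70 ± 0.31 (SE; edgeR adjusted p = 0.242), with 0.39 without BSA replicate 1 and 1.14 without BSA replicate 2.

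LPIN3, the other phosphatidate phosphatase of the family, had 50.5 and 47.2 CPM in the libraries labelled PA, against 30.3 and 34.8 CPM in the BSA libraries (ENSG00000132793, chr20:41340821-41360582, plus strand). The groups were apart by more than the range of either. LPIN3 had a log2 fold change of 0.58 ± 0.24 (SE; edgeR adjusted p = 0.221), and it was 0.28 with the trend over GC content and length removed.

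**Figure D2:**
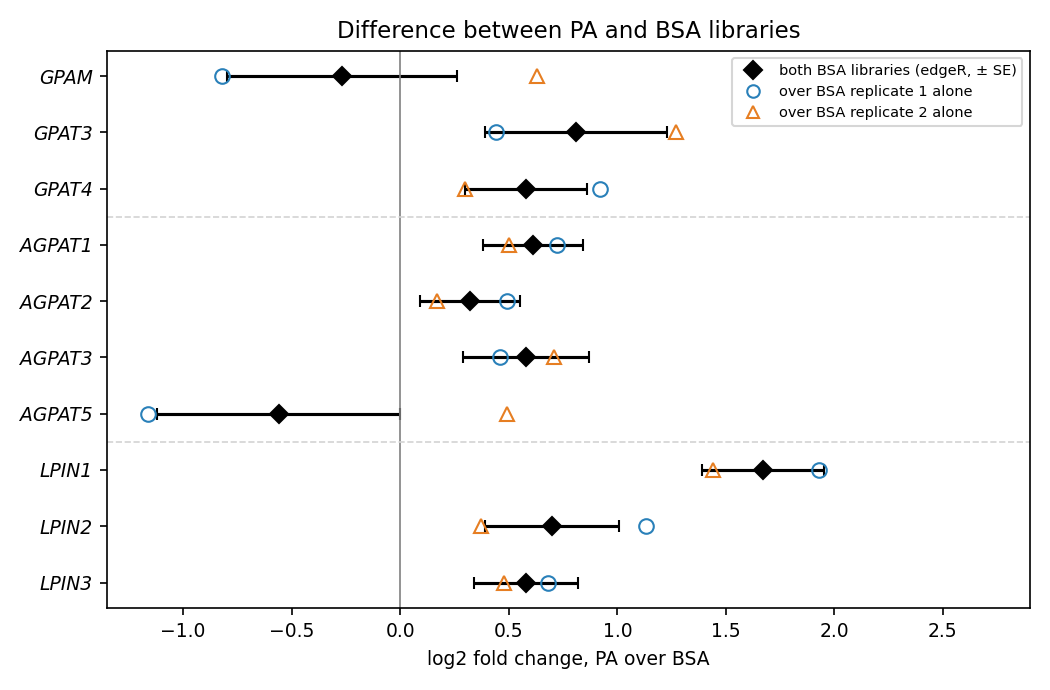
Log2 fold change of the libraries labelled PA over BSA for each gene in pathway order, with black diamonds and bars for the edgeR fit and its SE. Open circles and triangles give the mean of the libraries labelled PA over BSA replicate 1 and over BSA replicate 2 alone. GPAM and AGPAT5 change side with the BSA library, and both open symbols of LPIN1 lie above 1.4.

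Sequence upstream of a start site is shown for LPIN1 and AGPAT1, the genes with an unadjusted p under 0.05. RefSeq lists 3 start sites for LPIN1 and 5 for AGPAT1 on GRCh38.p14, and gene counts do not tell which of them was used. For each gene the start was taken whose first 25 transcribed bases occur in a GENCODE 29 transcript and whose 250 bases before the start hold a run of at least 150 bases outside any annotated exon, and that run is printed. The printed run of LPIN1, chr2:11746382-11746587 on the plus strand, ends 44 bases before the start. That of AGPAT1, chr6:32176123-32176334 on the minus strand, ends 38 bases before its start. Capitals mark GC boxes (GGGCGG or its complement CCGCCC) and a CCAAT box read on the opposite strand (ATTGG).
LPIN1: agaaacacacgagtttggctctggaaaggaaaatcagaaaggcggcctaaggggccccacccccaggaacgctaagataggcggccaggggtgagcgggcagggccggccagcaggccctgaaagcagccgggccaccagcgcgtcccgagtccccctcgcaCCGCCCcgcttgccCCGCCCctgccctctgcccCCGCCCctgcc
AGPAT1: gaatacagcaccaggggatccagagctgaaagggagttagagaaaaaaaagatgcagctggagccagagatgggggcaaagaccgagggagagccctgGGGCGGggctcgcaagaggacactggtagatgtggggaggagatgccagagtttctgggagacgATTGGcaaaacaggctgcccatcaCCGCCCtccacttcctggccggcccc

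The LPIN1 window of 250 bases held 4 GC boxes, 3 of them in the printed run, and had a GC content of 72.4%, and the AGPAT1 window held 2 GC boxes and 1 CCAAT box with a GC content of 60.8%. Of all 35116 RefSeq windows of the same length, 42.6% held a GC box and 32% a CCAAT box on either strand. The sterol element core TCACNCCAC occurred in 0.883% of all windows, the full sterol regulatory element, which adds A before that core, in 0.125%, and the E-box CACGTG in 6.34%. Neither form of the sterol element occurred in any of the 16 windows of the 7 members that were searched, and an E-box occurred in 1 window, of LPIN2. A match or its absence describes only these letters in these windows.

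Levels of different genes were compared by FPKM, the authors' measure scaled to gene length and library total. In the libraries labelled PA the order was AGPAT2 (93.1 ± 10.9 FPKM, SD, n = 2), AGPAT1 (20.8 ± 1.55), LPIN2 (17.4 ± 0.915), GPAT4 (12.7 ± 0.282), LPIN3 (10.2 ± 0.575), LPIN1 (8.57 ± 1.01), AGPAT5 (4.40 ± 0.0429), AGPAT3 (1.82 ± 0.126), GPAM (1.52 ± 0.104) and GPAT3 (1.14 ± 0.0924). No neighbours in that order overlapped between libraries labelled PA. In the BSA libraries AGPAT2 (78.0 ± 10.3 FPKM) stood clear at the top and GPAT3 (0.687 ± 0.295) at the bottom, and from AGPAT1 down to AGPAT3 each gene overlapped the next. LPIN1 was at 2.82 ± 0.603 FPKM there. The gene lengths behind these values were longer than the longest GENCODE 29 transcript for all 10 genes, 11861 against 5690 bases for LPIN1 but 1832 against 1512 bases for AGPAT2, so the order rests partly on that choice of length.

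The share of LPIN1 in its family differed between group means by 10.3 percentage points, and by 8.96 to 11.65 points with 1 library left out. LPIN1 took 22.3% and 24.99% of the summed lipin FPKM in the libraries labelled PA, against 13.5% and 13.2% in the BSA libraries. LPIN2 took 47.6% and 48.6% in the libraries labelled PA and 48.2% and 56.4% in the BSA libraries. LPIN3 took 30.1% and 26.4% in the libraries labelled PA and 38.3% and 30.4% in the BSA libraries. The groups were well apart for LPIN1, overlapped for LPIN2, and nearly touched for LPIN3, both libraries labelled PA being below both BSA libraries. The ratio of LPIN2 to LPIN1 FPKM was 2.13 and 1.95 in the libraries labelled PA and 3.56 and 4.29 in the BSA libraries. With 2 against 2 libraries an exact two-sided permutation test cannot go below p = 0.333, so these shares were not tested.

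At the other steps 1 isozyme dominated in every library, and the differences for GPAT4 and GPAM changed sign with the BSA library left out. The difference for GPAT4 was 6.04 points, with -5.05 without BSA replicate 1 and 17.13 without BSA replicate 2. For GPAM it was -7.41 points, with 1.55 without BSA replicate 1 and -16.37 without BSA replicate 2. GPAT4 took 83.2% and 82.2% of the summed FPKM of the glycerol-3-phosphate acyltransferases in the libraries labelled PA, and 65.6% and 87.7% in the BSA libraries. BSA replicate 1 stood apart because GPAM took 26.2% there, against 9.61% and 10.1% in the libraries labelled PA and 8.32% in BSA replicate 2. AGPAT2 took 76.6% and 78.3% of its family in the libraries labelled PA, and 73.5% and 81.4% in the BSA libraries. AGPAT4, described below, is not in these shares and sums. AGPAT1 took 17.7% and 17.0% in the libraries labelled PA, against 14.1% and 14.5% in the BSA libraries, and here the groups did not overlap. Summed FPKM of the lipins was 35.2 and 37.1 in the libraries labelled PA and 17.7 and 24.7 in the BSA libraries, 1.71 times as high by group means. For the glycerol-3-phosphate acyltransferases the ratio was 1.33 and for the acylglycerolphosphate acyltransferases 1.20.

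**Figure D3:**
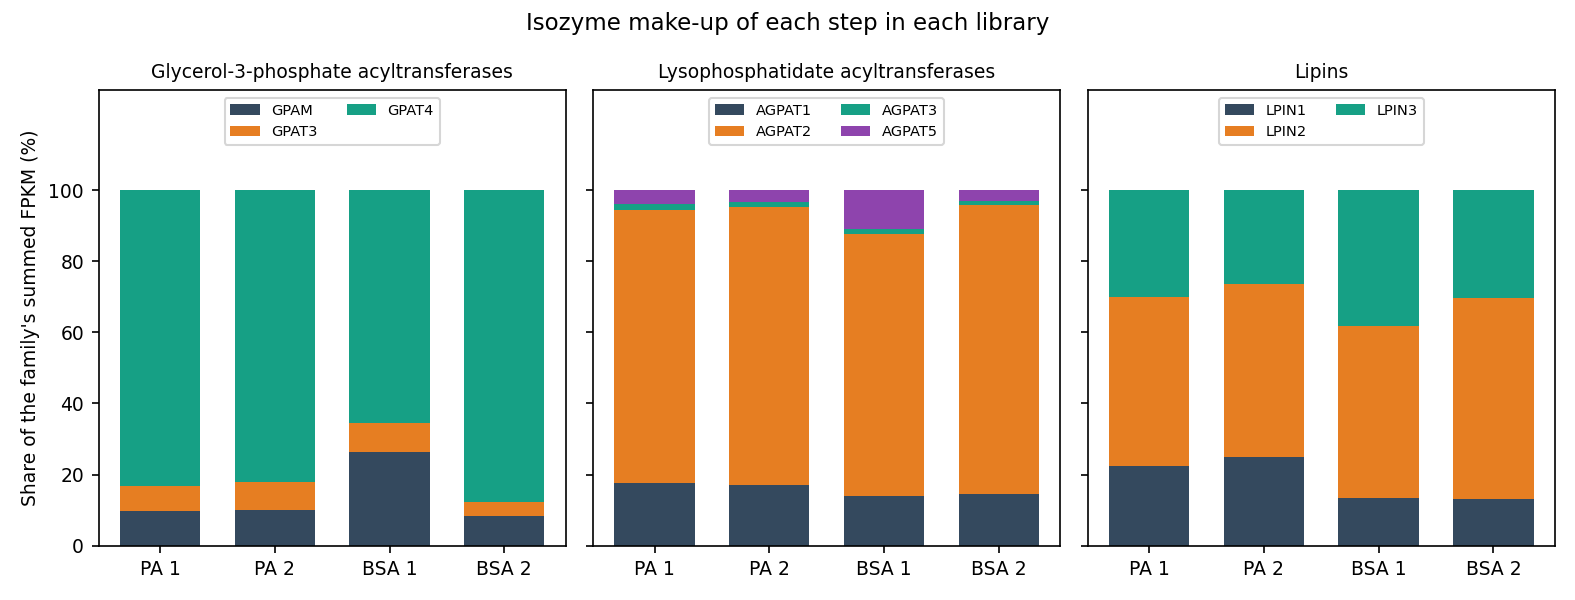
Share of each isozyme in its family's summed FPKM, in percent, as stacked bars for each library. The LPIN1 segment covers 22.3% and 24.99% in the libraries labelled PA and 13.5% and 13.2% in the BSA libraries, and the GPAM and AGPAT5 segments are largest in BSA replicate 1.

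The BSA libraries differed from each other most for the genes of lowest GC content. Mitochondrial counts made up 4.56% and 3.7% in the libraries labelled PA, against 3.75% in BSA replicate 1 and 1.88% in BSA replicate 2, and the part of this in the ratios was not tested. GPAM, AGPAT5 and GPAT3, whose longest transcripts have the lowest GC content of the 10 (41.0%, 42.3% and 44.1%), had log2 ratios of BSA replicate 2 over BSA replicate 1 of -1.44, -1.65 and -0.83. Among all tested genes within 1 percentage point of the same GC content, the median ratios were -0.82, -0.67 and -0.40. AGPAT5 lay below the interquartile range of such genes, which ran from -1.20 to -0.14, and GPAM at the lower edge of its own. AGPAT3, at -0.25, also lay below its range of 0.04 to 0.72, at a GC content of 55.3%. LPIN1 and LPIN2, at 0.49 and 0.76, lay above ranges that ended at 0.40 and 0.49. The other 5 genes were inside theirs. Apart from GPAM, AGPAT5, GPAT3 and AGPAT3, the genes had ratios above 0. Across the 10 genes Pearson's r between GC content and this ratio was 0.63 and Spearman's rho 0.43, against 0.58 and 0.60 across 16596 tested genes. All points come from the same pair of libraries. The ratio of PA replicate 2 over PA replicate 1 lay between -0.12 and 0.26 for all 10 genes.

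Set against BSA replicate 2 alone, the libraries labelled PA were on average higher for 10 of 10 genes, by log2 values from 0.17 (AGPAT2) to 1.44 (LPIN1), where 49.4% of all genes were higher. Set against BSA replicate 1 alone they were higher for 8 of 10, where 47.8% of all genes were higher. Without BSA replicate 1, edgeR called 9 of the 10 genes higher and 0 lower at an adjusted p under 0.05, AGPAT2 being the exception, in a fit that called 47.9% of all genes (25.3% higher and 22.6% lower). Without BSA replicate 2 it called 7 higher and 2, GPAM and AGPAT5, lower, in a fit that called 57.3% of all genes (27.3% higher and 30% lower). In both fits the spread comes from the libraries labelled PA alone, and the lone BSA library is assumed to vary like them. Without PA replicate 1 or PA replicate 2, edgeR called 0 of the 10 genes, in fits that called 0.0864% and 0.0481% of all genes. At an unadjusted p under 0.05 each of these fits had 1 member, LPIN1, higher and 0 lower, where 4.42% and 3.88% of all genes were higher.

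**Figure D4:**
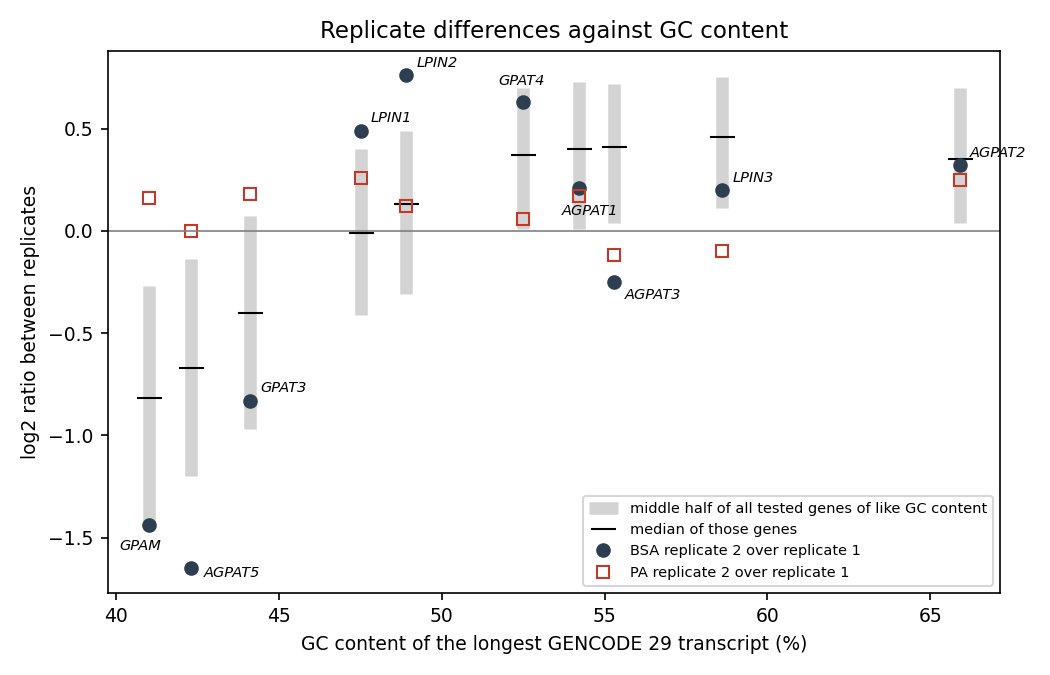
Log2 ratio between replicates against the GC content of each gene's longest GENCODE 29 transcript, in percent, with filled circles for BSA and open squares for libraries labelled PA. Grey bars span the interquartile range, and black dashes the median, of the BSA ratio over all tested genes within 1 percentage point of that GC content. BSA ratios of GPAM, AGPAT5 and GPAT3 are below -0.8, and all ratios of the libraries labelled PA stay near 0.

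The neighbouring steps were covered by 55 genes in 7 lists, of which 46 were tested, 7 were under the filter, and MOGAT2 and DGKB were not analysed here. No gene of these lists passed at an adjusted p under 0.05 in edgeR. At an unadjusted p under 0.05, 15 of 46 were higher and 0 lower, beside 13.1% and 11.2% of all genes. DESeq2 called 11 of the 46, all higher, where it called 10.6% of all genes. The median log2 fold change was 0.34.

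Other isozymes of the same steps had 3 of 6 tested genes higher at an unadjusted p under 0.05, where 13.1% of all genes were. AGPAT4, a family member expressed in brain and other tissues, had 20.7 and 21.8 CPM in the libraries labelled PA, against 9.31 and 6.77 CPM in the BSA libraries (log2 fold change 1.40 ± 0.32 SE, edgeR adjusted p = 0.101). PLPP1 and PLPP2 encode membrane phosphatases that act on phosphatidate and related lipids independently of lipins. PLPP1 had 20.01 and 20.3 CPM in the libraries labelled PA and 8.67 and 5.77 CPM in the BSA libraries, with a log2 fold change of 1.48 ± 0.35 (SE). PLPP2 had 121.3 and 128.6 CPM in the libraries labelled PA and 65.3 and 76.4 CPM in the BSA libraries, with a log2 fold change of 0.82 ± 0.21 (SE).

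Genes that make or oxidise glycerol-3-phosphate showed 0 of 5 at an unadjusted p under 0.05 (median log2 fold change -0.08), and all 5 overlapped between groups. Across all genes tested the median was -0.12, 13.1% were higher and 11.2% lower at this p, and 58% did not overlap. The phosphatase complex that activates lipins, CTDNEP1 and CNEP1R1, had 0 of 2 (median -0.02), also with overlap. In the branch from phosphatidate to CDP-diacylglycerol and the lipids made from it, 1 of 6 was higher, CDS2, a CDP-diacylglycerol synthase gene. CDS2 had 60.8 and 58.7 CPM in the libraries labelled PA and 31.7 and 24.5 CPM in the BSA libraries. The list for diacylglycerol use also holds genes that prepare the head groups joined to diacylglycerol, and 1 of 11 was higher (median -0.10). This was PCYT2, the rate-limiting enzyme of phosphatidylethanolamine synthesis from ethanolamine, which does not act on diacylglycerol itself. PCYT2 had 93.2 and 83.8 CPM in the libraries labelled PA and 36.1 and 43.7 CPM in the BSA libraries. DGAT1, which makes triglyceride from diacylglycerol, had a log2 fold change of 0.33 ± 0.27 (SE; edgeR adjusted p = 0.471).

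Diacylglycerol kinases, which turn diacylglycerol back into phosphatidate, had 4 of 7 tested genes higher at an unadjusted p under 0.05 (median log2 fold change 1.03). Across all genes tested 13.1% were higher at this p, and the median was -0.12. DGKQ had the largest difference in the 7 lists, with 69.0 and 68.8 CPM in the libraries labelled PA and 10.2 and 14.6 CPM in the BSA libraries (log2 fold change 2.47 ± 0.29 SE, edgeR adjusted p = 0.0589). DGKD and DGKA had log2 fold changes of 1.10 ± 0.22 and 1.23 ± 0.29 (SE). DGKH and DGKI lay lower without overlap, at log2 fold changes of -0.74 ± 0.42 and -0.42 ± 0.40 (SE), with edgeR adjusted p of 0.319 and 0.535. Of all genes tested, 29.1% lay lower without overlap.

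Transcriptional regulators of lipid metabolism had 6 of 9 higher at an unadjusted p under 0.05, where 13.1% of all genes were. SREBF1 and SREBF2 encode the SREBPs, and MLXIPL encodes the glucose-responsive factor ChREBP. SREBF1 had 339.5 and 401.0 CPM in the libraries labelled PA and 106.6 and 129.5 CPM in the BSA libraries. SREBF2 had 391.0 and 426.0 CPM in the libraries labelled PA and 98.3 and 140.1 CPM in the BSA libraries. MLXIPL had a log2 fold change of 1.47 ± 0.28 (SE; edgeR adjusted p = 0.0855). Of the 46 tested genes of these lists, SREBF2 and SREBF1 had the pattern nearest to that of LPIN1 over the 4 libraries, at Euclidean distances of 0.149 and 0.152 between mean-centred log2 CPM. GK and ETNK1 were nearest to GPAM, at 0.267 and 0.35. The log2 fold changes of SREBF2, SREBF1 and LPIN1 were themselves alike, at 1.78, 1.65 and 1.67, and genes outside the lists were not compared. With 4 libraries these distances describe likeness only.

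**Figure D5:**
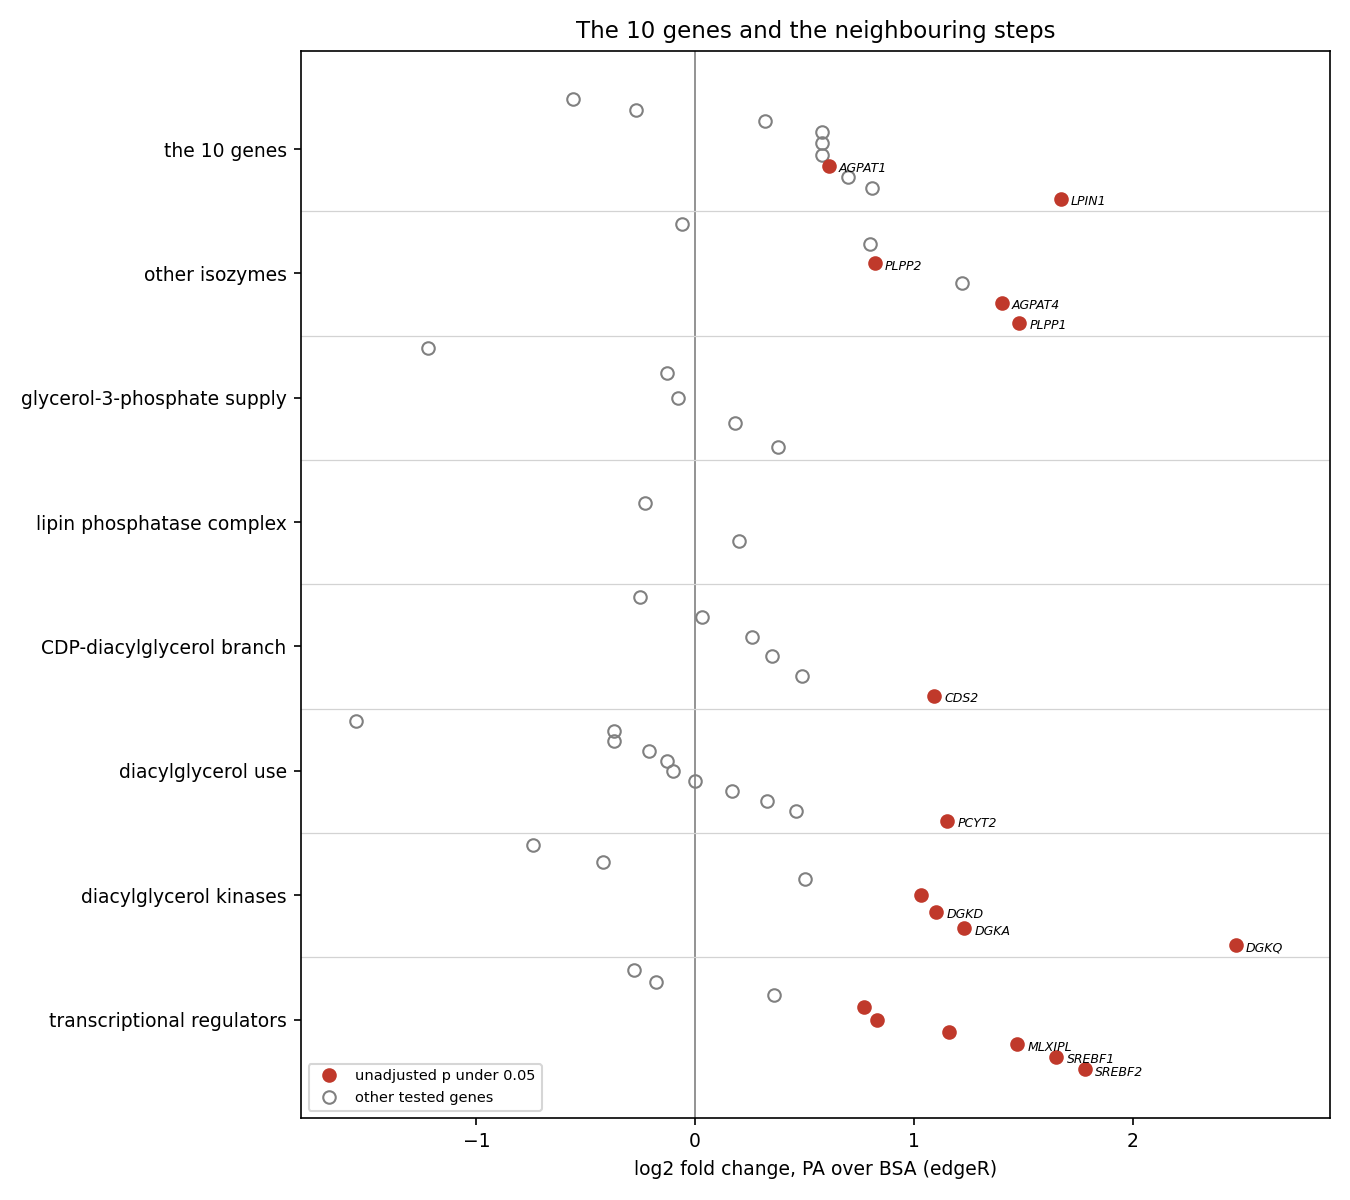
Log2 fold change (edgeR) of the libraries labelled PA over BSA for the 10 genes and for each list of neighbouring steps, with 1 point a tested gene and filled points at an unadjusted p under 0.05, the 3 of smallest p in each list named. All filled points lie above 0, and DGKQ lies farthest out at 2.47.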

How the data were processed

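HISAT2, StringTie and SAMtools are named in the submitters' processing notes, with hg38 as genome build. No source used here gives the annotation, how reads were counted or whether strand was used. The deposited table held counts per gene and FPKM values by the authors, per the file headers. Columns were assigned by sample title, and groups follow the titles. No library was a copy of its replicate, since the median chi-square over genes was 2.1 for PA and 23.87 for BSA, against 0.455 from sampling alone.

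The test on counts was that of edgeR 4.0.16 under R 4.3.3 (TMM normalisation, filterByExpr, quasi-likelihood F test, Benjamini-Hochberg adjustment at 0.05 over 17449 genes, all 4 libraries, no block). Each SE was obtained from the log2 fold change and the root of F. CPM values are TMM-normalised, and log2 CPM used a prior count of 2. The edgeR procedure was tested on simulated counts, drawn without the difference between BSA libraries that went with GC content. Before TMM scaling, a level of 1 CPM stands for 23.7 to 31.7 counts in a library, which sets the counting error. Alternatives used DESeq2 1.42.0, limma 3.58.1, other scalings and filters, log2(FPKM + 1) and log2(FPKM + 0.1), a replicate block, the removal of a smooth trend (loess, span 0.3) in GC content and log2 length, both of the longest GENCODE 29 transcript (95.1% of tested genes), and each library left out. Promoter windows are RefSeq's. Protein sequences were not used here.

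The members, the lists and the tests were chosen with earlier results of these data known. All 10 members were named, and from each list up to 3 genes of smallest unadjusted p under 0.05. DGAT1, DGKH, DGKI, CTDNEP1 and CNEP1R1 were named after their values were seen, and so were the printed runs of sequence chosen.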

Additional observations from a re-analysis of the deposited data

How the results depend on the processing

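Counts at an adjusted p under 0.05 depended strongly on the processing. Over all genes the count was 0 with RLE and upper-quartile factors and with a filter of 1 CPM in 2 libraries, as in the result reported. It was 1302 with no filter, 1842 with DESeq2, 1 with limma-voom and with limma on log2(FPKM + 1) and on log2(FPKM + 0.1), and 1546 once the trend over GC and length was taken out. Leaving out 1 library gave 9 to 10467 calls, the lowest without PA replicate 2 and the highest without BSA replicate 2. With the replicate block 537 genes were called (3.08%), 1 of the 10 members and 3 of the 46 neighbouring genes. With block and trend removal together these were 2628 (15.8%), 1 and 16. The numbers pair no libraries by the labels, and the deviations of equally numbered libraries correlated at 0.00844.

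Of the 10 members 1, LPIN1, was called with no filter, DESeq2 and trend removal, where 4.72%, 10.6% and 9.32% of all genes were called. At an unadjusted p under 0.05, 2 members, LPIN1 and AGPAT1, were higher, and 13.1% of all genes. This was 1 with upper-quartile factors and DESeq2 (11.6% and 11.7% of all genes), 4 with trend removal (15.9%), 3 with block and trend removal (15.5%), and 1 to 9 with 1 library left out (3.88% to 29.2%), and 0 to 2 members were then lower. With no filter (9.09%) and with the block (10.9%) the 2 members were LPIN1 and LPIN2. Neighbouring genes called were 8 with no filter, 11 with DESeq2, 9 with trend removal, and 0 to 33 with 1 library left out. GPAM reversed to 0.10 with trend removal, 0.12 with trend removal and block, and 0.65 without BSA replicate 1, against -0.81 without BSA replicate 2. AGPAT5 reversed to 0.51 without BSA replicate 1, against -1.15 without BSA replicate 2. The other 8 members kept their direction in all 15 alternatives. Differences in isozyme share rest on 2 libraries a group. With 1 library left out they changed sign for GPAM, GPAT3, GPAT4, AGPAT2 and AGPAT5, and for AGPAT5 ran from -7.25 to 0.60 percentage points around -3.33. For LPIN1 the difference was 14.06 points with counts in place of FPKM, against 10.3 by FPKM. GPAT3, at 55 to 116 counts, carries the largest counting error of the members.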
